A study of Schistosoma mansoni with 6 samples.

Results

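Zinc finger protein genes of the blood fluke Schistosoma mansoni were compared between irradiated and mock-irradiated worms. They were the rows of the deposited table with an exon length above 0 whose product name holds "zinc finger" and neither "kinase" nor "gtpase". This gave 95 genes of 10770 rows with exons. A further gene of that name, Smp_145470, was left out by the rule, and its values are given after those of the other genes. Of the 95 genes, 86 are named only as a putative zinc finger protein and 92 carry the Gene Ontology (GO) term zinc ion binding.

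A zinc finger is a short stretch of protein folded around a zinc ion held by cysteines and histidines. Many such proteins bind DNA and switch genes on or off, and others bind RNA, attach ubiquitin to proteins or, in the palmitoyltransferases, add a fatty acid to them. The 3 irradiated libraries came from adult males of the NMRI strain, taken from mice 43 days after infection, exposed to 200 Gy of gamma rays from a cobalt source and kept in culture for 48 hours. The 3 control libraries came from males of the same strain and age that were mock-irradiated and cultured for the same time. In both groups the worms were cultured before the sexes were parted, the head and testes were cut away, and RNA was taken from pooled worms. Neoblasts, the somatic stem cells of flatworms, are the cells that divide in such tissue, and high doses of radiation halt their division. Nothing in the labels ties the pools to separate infections, and the p-values therefore measure only how far these pools differ, which may be technical.

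Exon reads per library ranged from 21594259 to 29641087 after irradiation and from 17577059 to 26858868 in controls. The summed level of 25 muscle genes was 21116 to 22986 CPM after irradiation and 22360 to 23292 in controls, and the groups overlapped. CPM are read counts scaled to a common library size. Of 23 tested muscle genes, 2 were called lower, where 2.49% of all genes were. The 48 tegument genes, of the worm's skin, summed to 16939 to 18277 CPM after irradiation and 15366 to 16410 in controls. Of 44 tested tegument genes, 2 were called higher, where 0.619% of all genes were. The 16 gut genes summed to 22946 to 23971 CPM after irradiation and 24048 to 26269 in controls. Neither the tegument nor the gut list overlapped between groups. The 5 genes named for sperm or testis, tissue that was cut away, were not at 0, with 261 to 277 CPM after irradiation and 272 to 294 in controls. Lists for neurons (2106 to 2154 CPM after irradiation, 2099 to 2203 in controls) and eggshell (809 to 876, 848 to 916) overlapped between groups. So did that for the esophageal gland, of the head that was cut away (1047 to 1146, 1063 to 1198). The 4 stem cell genes ago2-1, nanos-2, fgfrA and fgfrB summed to 29.6 to 37.9 CPM after irradiation and 110 to 116 in controls, and all 4 were called lower. Their direction was known from earlier results of these data. The part of the tegument, gut and stem cell levels in the zinc finger values was not tested.

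Most zinc finger genes were expressed, and a minority had almost no reads. Of the 95, 78 had enough reads to be tested, and 17 had between 0 and 49 exon reads over the 6 libraries. On the RPKM scale, the reads scaled to exon length and library size, which allows levels of different genes to be compared, the tested genes ran from 0.868 to 210.1 with a median of 26.55. The median over all 8885 tested genes was 23.5 RPKM. Among the tested zinc finger genes, 6 were above 100 RPKM, 54 between 10 and 100, and 18 below 10.

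By the GO terms of the table, 70 genes belong to DNA binding or transcription, 8 carry the acyltransferase term of palmitoyltransferases, 4 a term of the ubiquitin pathway, 3 a term of RNA binding or processing, and 10 none of these. The highest levels per length were those of Smp_072720, with 212.8 ± 11.1 RPKM in irradiated and 207.4 ± 8.67 in control worms, and of Smp_105210, with 145.9 ± 3.09 and 142.2 ± 7.97 (SD, n = 3 each). Both carry the terms DNA binding and response to stress. They have similar exon lengths of 1830 and 1827 bases in 4 exons each. The order below them ran Smp_071380, Smp_074930, Smp_099900, Smp_125460 and Smp_049970. These had 134.8 ± 2.55, 115.2 ± 3.90, 107.3 ± 2.24, 103.0 ± 7.48 and 99.2 ± 1.59 RPKM after irradiation and 128.5 ± 5.19, 107.3 ± 9.09, 107.7 ± 7.03, 103.7 ± 12.2 and 100.3 ± 0.591 in controls. The last 4 of these neighbours do not part beyond their spread in controls.

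**Figure D1:**
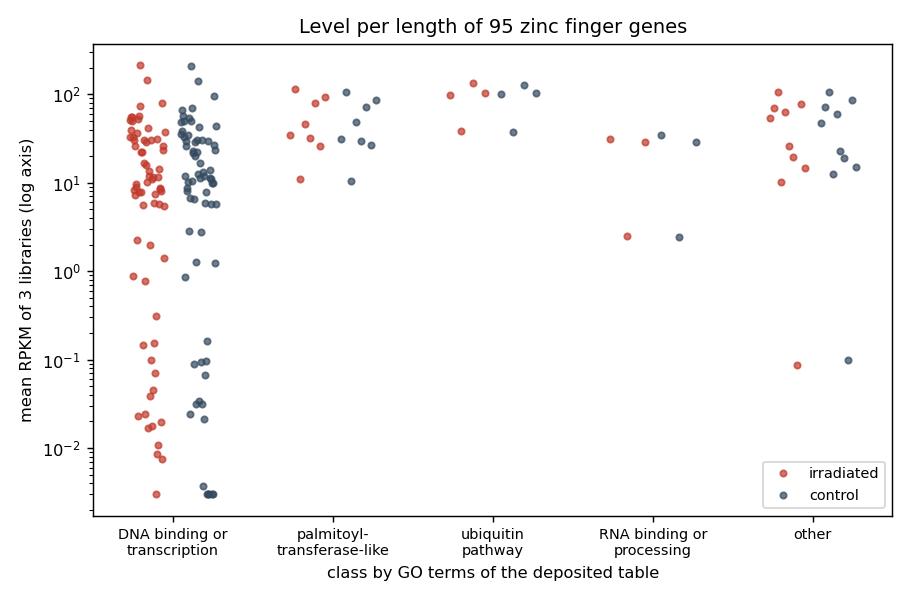
Mean RPKM of 3 libraries (log axis) for each of the 95 zinc finger genes, by GO class, irradiated in red and control in blue. Means below 0.003 are drawn at 0.003, which covers 1 gene with no reads after irradiation and 5 with none in controls. The low tail lies in the DNA binding class, apart from 1 gene of the class with none of the named terms.

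After irradiation 4 of the 78 tested zinc finger genes were lower and none higher at an edgeR p below 0.05 after Benjamini-Hochberg adjustment across the 8885 genes. Over all genes 2.49% were called lower and 0.619% higher. The 4 calls make 5.13% of the tested zinc finger genes. At an unadjusted p under 0.05, 21 zinc finger genes were lower and 4 higher, and 13.3% of all genes were lower and 8.27% higher. DESeq2 and limma also called 0 zinc finger genes higher, where they called 127 and 21 of all 8885 genes higher. In bulk tissue, fewer cells of a type and less RNA per cell cannot be told apart.

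The 4 called genes all carry the GO terms DNA binding and regulation of transcription, and all fell by less than 1.5-fold. The class of DNA binding or transcription holds 54 of the 78 tested zinc finger genes. The gene with the lowest adjusted p was Smp_018170, which lies in 1 exon of 1542 bases. It had 14.0, 15.0 and 15.7 CPM in irradiated A, B and C, against control values of 20.25, 22.8 and 21.3 CPM. Every irradiated library was below every control. Its log2 fold change was -0.52 (SE 0.08, 95% interval -0.70 to -0.35, edgeR adjusted p = 0.005897), which is 1.44-fold lower.

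Smp_169260 was the most abundant of the 4, and it ranks 9 in RPKM among all 95 genes. It had 405, 427.4 and 402.8 CPM in irradiated A, B and C, against 487.9, 505.4 and 498.7 CPM in the controls. The groups stood apart, with a gap several times the SD of 13.6 CPM after irradiation and 8.80 CPM in controls. Its log2 fold change was -0.27 (SE 0.04, edgeR adjusted p = 0.01018), 1.21-fold lower.

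Smp_009070 had 128.1, 146.4 and 133.7 CPM in the irradiated libraries, against 159.7, 170.2 and 160.7 CPM in controls, a log2 fold change at -0.27 (SE 0.06, edgeR adjusted p = 0.04314). Smp_086750 had 109.1, 122.7 and 105.2 CPM in the irradiated libraries, against 131.8, 148.7 and 138.1 CPM in controls, a log2 fold change at -0.31 (SE 0.07, edgeR adjusted p = 0.04403). In both genes the groups did not overlap, and library B was the highest of each group. These 2 calls lay just inside the threshold.

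The calls of Smp_169260, Smp_009070 and Smp_086750 depended on single libraries, and that of Smp_018170 did not. With each of the 6 libraries left out in turn, the edgeR adjusted p of Smp_018170 lay between 0.00727 and 0.03446, and the gene was called each time. Smp_169260 had adjusted p of 0.005726 to 0.07005 and lost its call without irradiated A, irradiated C or control C. Smp_009070, with 0.006149 to 0.1686, and Smp_086750, with 0.005723 to 0.1699, kept their calls only without irradiated B or control A. The log2 fold changes of these 4 genes stayed below 0 in the 6 fits.

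**Figure D2:**
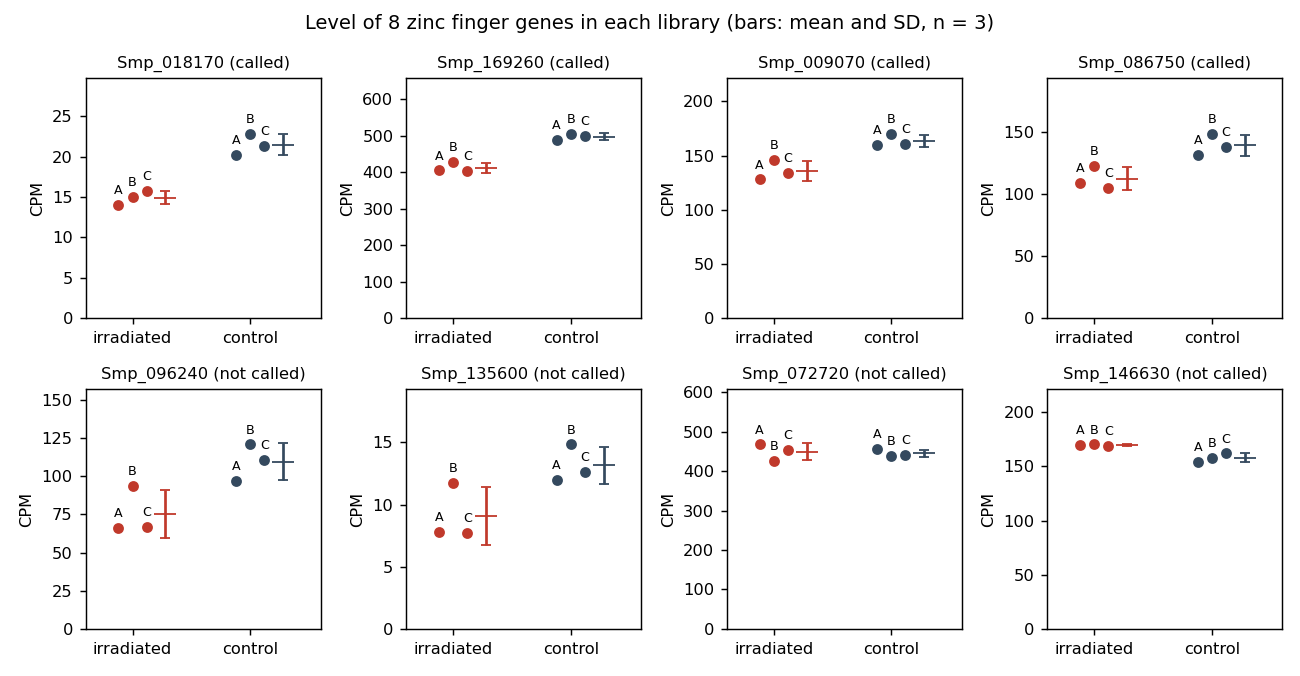
CPM in each library (points A, B and C, with mean and SD, n = 3) for the 4 called genes in the upper row and for 4 uncalled genes in the lower row, irradiated left of control, each axis from 0. In Smp_018170 the irradiated libraries lie between 14.0 and 15.7 CPM and all controls above 20, while in Smp_072720 the groups overlap.

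Several uncalled genes had point estimates at least as low as those of the called ones, with a wider spread. Smp_096240 had 65.95, 93.5 and 66.6 CPM in irradiated A, B and C, against 96.9, 120.9 and 111.0 CPM in the controls. Irradiated B came close to control A, and the groups did not overlap. The log2 fold change was -0.54 (SE 0.13, edgeR adjusted p = 0.06349). Smp_135600 had 7.81, 11.8 and 7.69 CPM in the irradiated libraries, against 12.01, 14.8 and 12.6 CPM in controls, with a log2 fold change at -0.54 (SE 0.16, edgeR adjusted p = 0.1056). Here too irradiated B lay near the controls.

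Smp_078550 had 39.8, 53.2 and 41.55 CPM in the irradiated libraries, against 56.4, 67.9 and 60.0 CPM in controls, a log2 fold change at -0.46 (SE 0.11, edgeR adjusted p = 0.06083). Smp_130690, Smp_049160 and Smp_122370 had log2 fold changes of -0.35, -0.35 and -0.33, with adjusted p of 0.1032, 0.06011 and 0.07485 (edgeR). Smp_122370 also carries terms for motor activity and actin binding. The gene nearest to the threshold from outside was Smp_164720, at -0.24 (SE 0.06, edgeR adjusted p = 0.05987). Without irradiated B the edgeR adjusted p of these 7 uncalled genes lay between 0.001552 and 0.02274, so that each was called. In that fit 8.09% of all genes were called lower. The highest edgeR adjusted p of each gene over the 6 fits that leave out a library lay between 0.2199 and 0.3186. Among the tested zinc finger genes, 18 had every irradiated library below every control and 4 the reverse, against 13.3% and 12% of all genes.

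The lowest point estimate of all, that of Smp_095290 at -0.74 (SE 0.27, edgeR adjusted p = 0.1562), rested on 42 irradiated and 63 control reads. Smp_095290 was called in the fit on gene reads with introns, the only 1 of 17 alternative fits that called it. Introns held 62.8% of its gene reads after irradiation and 70.6% in controls. The gene gli2a, a zinc finger factor that in other animals acts in Hedgehog signalling, had 290.1, 379.2 and 311.2 CPM in the irradiated libraries, against 356.3, 411.9 and 376.5 CPM in controls. Irradiated B lay above control A and control C, so the groups overlapped, with a log2 fold change at -0.22 (SE 0.10, edgeR adjusted p = 0.2123). Smp_000150, named for a PHD finger, a fold found in proteins that read histone tails, had a log2 fold change at -0.14 (SE 0.06, edgeR adjusted p = 0.243). Both gli2a and Smp_095290 were singled out after their values were seen.

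**Figure D3:**
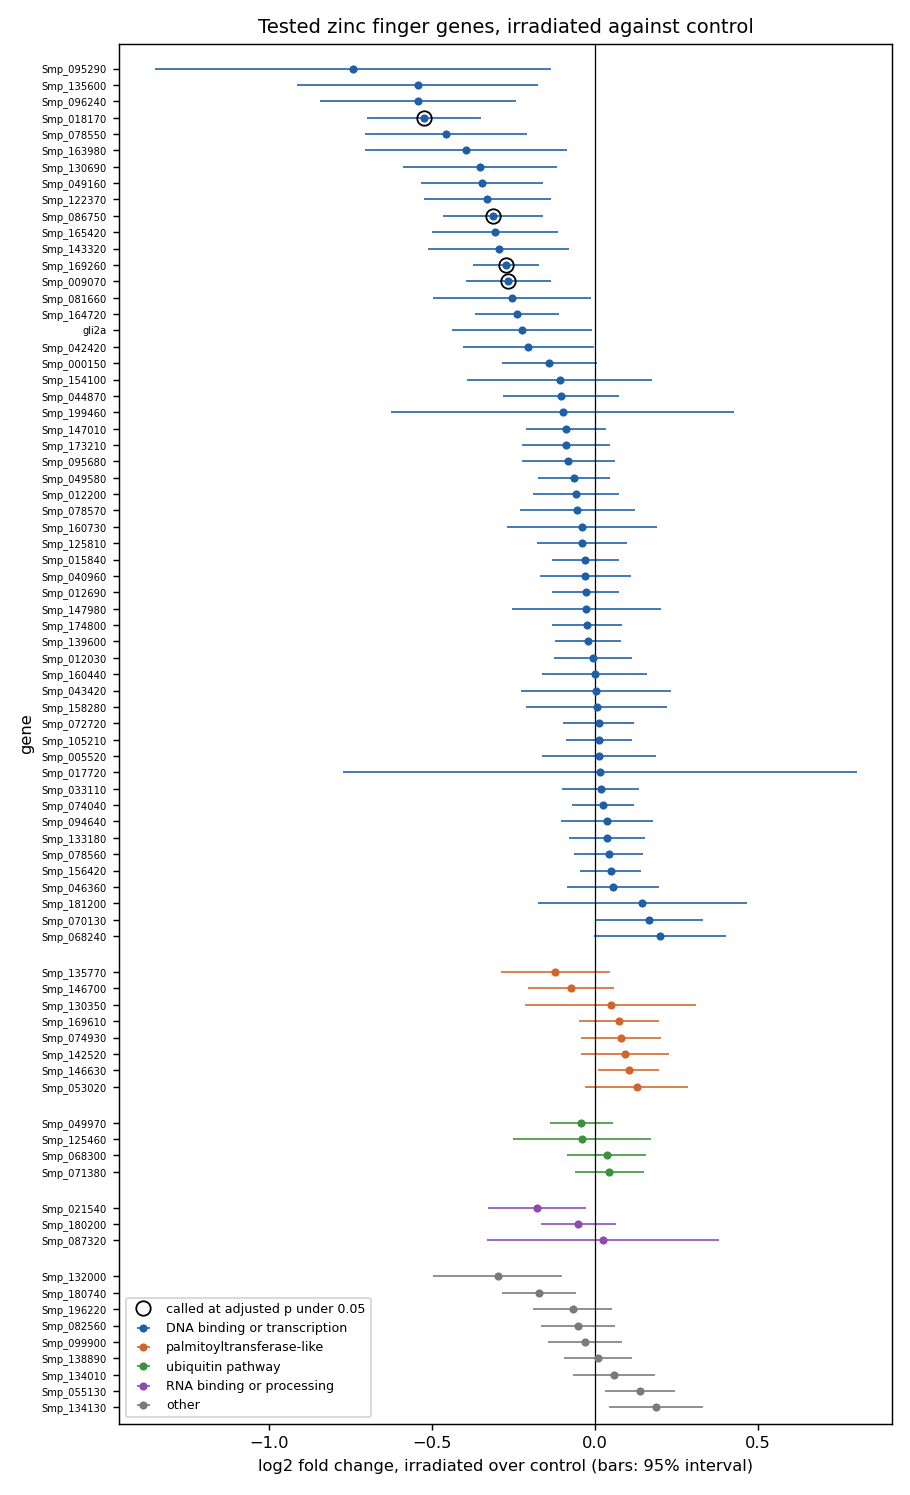
Log2 fold change of the 78 tested zinc finger genes, irradiated over control, with 95% intervals, grouped by GO class and sorted within it. Circled points are the 4 called genes, all in the DNA binding class, which holds 54 of the 78 tested genes. Genes of this class reach lower than those of the other classes, which hold only 3 to 9 tested genes each.

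Most zinc finger genes stayed within narrow bounds. The 95% interval lay wholly inside a 1.5-fold change either way for 69 of the 78, or 88.5%, and for 85.0% of all tested genes. It lay inside a 2-fold change for 77 of 78. The median log2 fold change was -0.04, with 49 genes below 0 and 29 above, or 62.8% below against 49.3% of all genes, whose median was 0.00. The 2 genes highest in RPKM had fold changes near 0, while Smp_169260, with the most reads of all, was called lower. Smp_072720 had 467.5, 425.8 and 453.7 CPM in irradiated A, B and C, against 455.5, 439.4 and 441.7 CPM in controls, and its 95% interval ran from -0.10 to 0.12. That of Smp_105210 ran from -0.09 to 0.11.

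The GO classes also differ in exon length. In the DNA binding class, 38 of 54 tested genes lay below 0, with a median of -0.06, and 15 had every irradiated library below every control, with none the other way, against 13.3% and 12% of all genes. This class holds 12 of the 14 zinc finger genes of 4000 or more bases, which supply 9 of the 15. Among its 21 tested genes of 1000 to under 2000 bases, 1 had every irradiated library below every control, and the median was -0.02. Of all 3104 tested genes of that length, 292 had every irradiated library below every control and 466 the reverse, with a median of 0.02. Of the 8 palmitoyltransferase-like genes, 2 lay below 0 and 6 above, with a median of 0.08, and none was called. Their summed level was 743.9, 740.8 and 712.7 CPM in irradiated A, B and C, against 705.4, 693.8 and 712.2 CPM in the controls, so that irradiated C and control C were almost level. No test compared the classes.

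Among the palmitoyltransferase-like genes, Smp_146630 had 169.9, 170.2 and 168.9 CPM in the irradiated libraries, against 153.8, 158.1 and 161.9 CPM in controls, a log2 fold change at 0.10 (SE 0.04, edgeR adjusted p = 0.1922). Its 3 irradiated libraries lay above all controls. Smp_142520 had no overlap by a narrow margin, with 34.85, 31.48 and 32.1 CPM in the irradiated libraries, against 30.65, 31.27 and 30.54 CPM in controls. Its log2 fold change was 0.09 (SE 0.06, 95% interval -0.04 to 0.23, edgeR adjusted p = 0.4059). The abundant members Smp_074930 and Smp_169610 had 0.08 and 0.07, each with an SE of 0.05. All 8 had a 95% interval inside a 1.5-fold change.

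The 4 genes of the ubiquitin pathway, whose proteins mark others for breakdown or transport, had log2 fold changes between -0.04 and 0.04. Smp_071380 had 417.3, 409.3 and 417.2 CPM in the irradiated libraries, against 383.5, 403.8 and 419.5 CPM in controls. Smp_125460 had 326.6, 284.1 and 298.6 CPM in the irradiated libraries, against 282.7, 362.3 and 289.7 CPM in controls. The groups of both genes overlapped, and control B stood highest in Smp_125460. Smp_049970 had a log2 fold change at -0.04 (SE 0.04). The 3 genes with RNA terms ran from -0.18 to 0.02, the lowest being the splicing-annotated Smp_021540 (SE 0.07, edgeR adjusted p = 0.1665).

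Of the 9 tested genes with none of these terms, 5 lay below 0 and 4 above. Every irradiated library was below every control in 3 and the reverse in 2, against 13.3% and 12% of all genes. The lowest was Smp_132000, of 8220 bases, with 88.9, 112.3 and 92.7 CPM in the irradiated libraries, against 112.6, 128.6 and 119.7 CPM in controls. The groups only just parted, with a log2 fold change at -0.30 (SE 0.09, edgeR adjusted p = 0.1002). Smp_180740 had 263.6, 288.5 and 267.2 CPM in the irradiated libraries, against 296.2, 316.3 and 310.9 CPM in controls, at -0.17 (SE 0.05, edgeR adjusted p = 0.09811). The highest was Smp_134130, annotated for actin binding, at 0.19 (SE 0.06, edgeR adjusted p = 0.1403). Smp_134130 had 46.8, 44.0 and 43.8 CPM in the irradiated libraries, against 39.1, 36.9 and 42.6 CPM in controls. All irradiated libraries lay above all controls, and the gene did not pass the threshold. Smp_099900, with 185.9 ± 3.12 CPM after irradiation and 189.9 ± 10.9 in controls (SD, n = 3 each), had a log2 fold change at -0.03 (SE 0.05).

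Long genes had the lower fold changes, among zinc finger genes and among all genes. Of the 18 zinc finger genes with every irradiated library below every control, 10 had 4000 or more bases of exon. Of all 718 tested genes of that length, 253 had every irradiated library below every control and 20 the reverse. Of the 14 zinc finger genes with 4000 or more bases of exon, 12 lay below 0, with a median log2 fold change of -0.30. Of all tested genes of that length, 86.5% lay below 0, with a median of -0.15. Among zinc finger genes of 1000 to under 2000 bases, 17 of 34 lay below 0, against 41.1% of all genes of that length. Across the 78 tested zinc finger genes Pearson's r between log2 fold change and log2 exon length was -0.36, and across all tested genes it was -0.14. Genes share libraries and are not independent replicates, so these are descriptions.

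The summed level of the 14 long zinc finger genes was 1675, 1945 and 1712 CPM in irradiated A, B and C, against 1989, 2208 and 2078 CPM in the controls. The groups did not overlap, and B was the highest library of each. All 720 genes of that length summed to 115600, 129700 and 118400 CPM in irradiated A to C, against 127800, 142100 and 133800 in controls. There too B was the highest library of each group, and irradiated B lay above control A, so the groups overlapped. The share of the zinc finger genes' reads that fell in introns was 16.8%, 17.7% and 16.3% in irradiated A, B and C, against 17.3%, 20.45% and 17.9% in controls A, B and C. Over all rows with exons it was 12.1%, 13.0% and 11.7% in irradiated A, B and C, against 12.3%, 16.1% and 13.1% in controls. B was highest in each group, among zinc finger genes and among all rows. The part of the intronic share in the fold changes was not tested.

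When each library's trend of level on exon length was removed, 4 zinc finger genes were again called lower, of which 2 were the same. This alternative was chosen after seeing the data. Smp_018170, at -0.54 (edgeR adjusted p = 0.00305), and Smp_009070, at -0.26 (adjusted p = 0.01752), kept their calls. Smp_078550, at -0.32 (adjusted p = 0.0329), and Smp_096240, at -0.44 (adjusted p = 0.0338), were called in addition. Smp_169260 and Smp_086750 had log2 fold changes of -0.15 and -0.14 with adjusted p of 0.07009 and 0.07635 (edgeR). Of the 14 long genes, 11 lay below 0 with a median of -0.13, while the median of all genes of that length was 0.01. Of the 54 tested genes of the DNA binding class, 40 lay below 0 with a median of -0.055, where 49.2% of all tested genes did. Before the trend was removed this class had 38 below 0 and a median of -0.056.

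**Figure D4:**
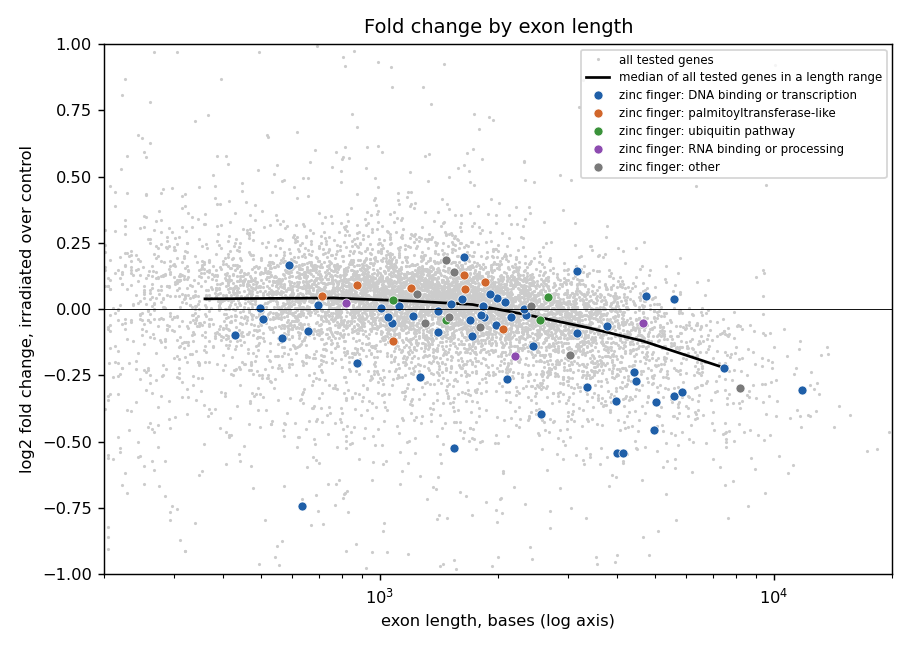
Log2 fold change, irradiated over control, against exon length in bases (log axis) for the tested zinc finger genes, coloured by GO class, and for all tested genes in grey, with the median of all genes by length range as a line. The 126 genes beyond 1 on the log2 scale are not drawn. The line drops below 0 among long genes, and 12 of the 14 zinc finger genes of 4000 or more bases lie below 0.

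In the RefSeq table of assembly ASM23792v2, used here only for gene order, Smp_078550, Smp_078560 and Smp_078570 are consecutive genes. Their log2 fold changes were -0.46 (SE 0.11), 0.04 (SE 0.05) and -0.05 (SE 0.08), and their differences were not tested. Smp_078560 had 51.55, 51.34 and 51.45 CPM in the irradiated libraries, against 48.99, 51.35 and 49.6 CPM in controls. These 2 neighbours were singled out after their values were seen. On reads that span 2 exons Smp_078550 was the only zinc finger gene called, at -0.67 (edgeR adjusted p = 0.01507). In intronic reads alone it was -0.52 (edgeR adjusted p = 0.06844).

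The 17 untested genes all had very few reads, and 16 of them are annotated for DNA binding or transcription. They include all 4 genes named as C2H2 fingers, 2 of them of the Zic family, which acts in neural development of other animals, and both genes named for a GATA finger. Of the C2H2 genes, Smp_151940 had the highest level, with 4, 3 and 3 reads in irradiated A, B and C, against 2, 1 and 1 reads in controls. The GATA gene Smp_080030 had 2, 3 and 2 reads after irradiation, against 2, 1 and 1 in controls. Such counts are at or near 3 reads, the number that a count of 0 allows, which is 0.101 to 0.139 CPM after irradiation and 0.112 to 0.171 CPM in controls, for counting error only. Smp_155070 had 0 reads in all libraries.

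By the p-values of the authors' deposited table, 12 zinc finger genes were lower and 6 higher by fold change at an unadjusted p under 0.05, against 6.73% and 6.64% of all genes. A further gene, Smp_164740, has a p of 0.000355 in the authors' deposited table with no fold change, on 1 read in each irradiated library and 0 in each control. Of all 95 genes, 91 had at least 99% of their exon reads mapped uniquely. The lowest share among tested genes was 66.15% in Smp_012690, which therefore may share reads with a copy, and its log2 fold change was -0.03 (SE 0.05).

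The gene left out by the rule had a lower fold change than any of the 78 tested genes. Smp_145470 had 6, 6 and 3 exon reads in irradiated A, B and C, or 0.203, 0.278 and 0.125 CPM, against 73, 56 and 59 reads, or 2.72, 2.45 and 3.37 CPM, in the controls. Its log2 fold change was -3.82 (SE 0.29, edgeR adjusted p = 5.891e-05), 14.1-fold lower. The irradiated counts lay at or near the 3 reads that a count of 0 allows. With limma on log2(RPKM + 0.5) the log2 fold change was -1.86, so its size depends on how low counts are treated. The largest fall among called zinc finger genes that the rule kept was the 1.44-fold of Smp_018170.

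Lists of related genes outside the 95 also had medians below 0. Of 96 tested genes named as other DNA binding or transcription factors, 2 were called lower and 0 higher, 66.7% lay below 0, and the median log2 fold change was -0.08. The list was drawn by name and also takes some cofactors. At an unadjusted p under 0.05, 22 of them were lower and 1 higher. Of all genes, 2.49% were called lower and 0.619% higher, and 49.3% lay below 0. At an unadjusted p under 0.05, 13.3% of all genes were lower and 8.27% higher. Of 42 tested genes named for other zinc-binding folds, such as RING, PHD, LIM and FYVE, edgeR called 0 in either direction, 7 were lower and 2 higher at an unadjusted p under 0.05, 71.4% lay below 0 and the median was -0.05.

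The count of zinc finger genes called lower moved with the libraries and the test used, together with that of all genes. It was 17 of 78 without irradiated B, or 21.8%, where 8.09% of all genes were called lower, and 15, or 19.2%, without B in both groups, where 6.86% of all genes were. It was 7 without control A and 2 without control B, where the shares of all genes were 4.02% and 1.41%. Without irradiated A, irradiated C or control C only Smp_018170 was called, with 1.38%, 1.42% and 1.33% of all genes. DESeq2 called 12, or 15.4%, and 5.51% of all genes, and limma on log2(RPKM + 0.5) called Smp_018170 alone, or 1.28%, and 1.68% of all genes.

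The calls also moved with how reads were counted and scaled. RLE scaling and unique exon reads called the same 4 zinc finger genes, and 2.57% and 2.61% of all genes. Upper-quartile scaling called 3 of them, and 2.35% of all genes, and a minimum of 5 CPM in 3 libraries called Smp_018170 and Smp_169260, and 1.02%. Without a filter beyond 1 read, Smp_078550 and Smp_096240 joined the 4, and 3.02% of all genes were called. Gene reads with introns called 3 zinc finger genes and 1.85% of all genes, exon-exon reads 1 and 2.51%, and removal of the length trend 4 and 3.33%. Intronic reads alone gave 0 zinc finger genes and 0.252% of all genes. No zinc finger gene was called higher in any of these fits, where 26 to 114 of 7264 to 10124 tested genes were. Smp_018170 was called in each of these fits except those on exon-exon and intronic reads, which could not test a gene of 1 exon.

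**Figure D5:**
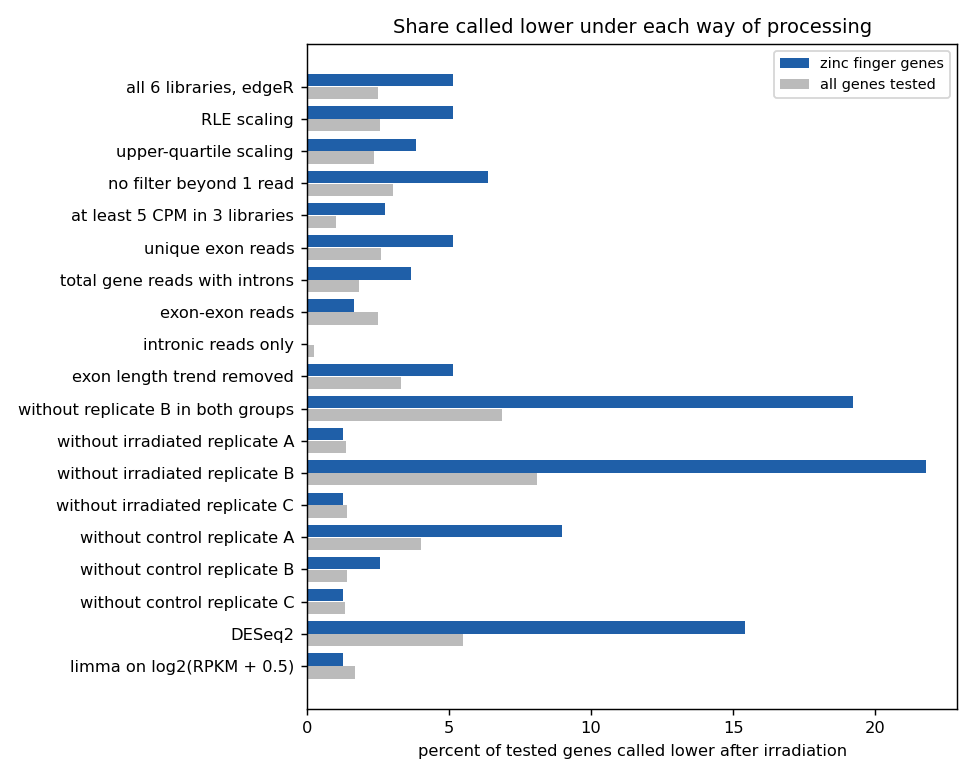
Percent of tested genes called lower after irradiation at an adjusted p under 0.05, for zinc finger genes (blue) and all genes (grey), under the ways of processing described, the replicate block not drawn. The blue bar is longest without irradiated B, at 21.8%, is 1.28% without irradiated A, irradiated C or control C, and is at 0 on intronic reads.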

How the data were processed

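The authors deposited 1 table. Per the file headers it holds counts of gene, exon, exon-exon and intron-exon reads in each library, RPKM values, a p-value and a signed fold change score of the authors. No aligner, counting program or genome build is named there, and these are not given in the sources used. Deposited RPKM matched total exon reads over exon length and total gene reads (largest relative difference 3.77e-08). Rows without exons (2535 of 13305, holding 0.654% to 1.40% of gene reads) were left out.

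Total exon reads were filtered with filterByExpr and fitted by the quasi-likelihood method of edgeR 4.0.16 (R 4.3.3) with TMM scaling. P-values were adjusted over 8885 genes by the Benjamini-Hochberg method, and the script was tested on simulated data. CPM use TMM-scaled totals. Fold changes are unshrunken, and an SE is the log2 fold change over the square root of F. Alternatives included DESeq2 1.42.0 and limma 3.58.1. No source says that the libraries keep strand, so reads of overlapping genes cannot be told apart. Replicate pairs differed by more than sampling noise (chi-square per degree of freedom 7.41 to 18.1).

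The members, lists and rules were chosen with earlier results of these data known, and the GO classes, length ranges and some alternatives (intronic reads, length trend, no B libraries) after seeing the table. The rule for named genes took all called members, the 6 lowest and up to 6 highest uncalled members without overlap at a mean log2 CPM of 1 or more, the 8 highest in RPKM, those nearest the threshold and the most abundant of each name class. Other genes were named after their values were seen. 1 gene that the rule names is not reported here. Of the 95 members, 84 matched a RefSeq locus tag. Protein sequences were not used here, so finger types rest on names and GO terms.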

Additional observations from a re-analysis of the deposited data

How the results depend on the processing

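The count of zinc finger genes called lower, 4, was between 3 and 6 with RLE or upper-quartile scaling, no filter beyond 1 read, unique exon reads, gene reads with introns or the exon length trend removed. It was 2 with at least 5 CPM in 3 libraries, 1 on exon-exon reads, 0 on intronic reads (an alternative chosen after seeing the data), 12 with DESeq2, 1 with limma, 15 without replicate B in both groups (also added), and 1 to 17 when each library was left out. The number called higher was 0 in every fit. Over all genes 221 were called lower and 55 higher. With at least 5 CPM in 3 libraries these were 77 and 26, on intronic reads 19 and 30, without replicate B in both groups 612 and 92, with DESeq2 490 and 127, and 119 to 723 and 16 to 129 when each library was left out. With the length trend removed 114 were higher, and with limma 21. The cause of these shifts was not tested.

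The letters A, B and C are not said to pair the pools. Same-letter libraries had deviations from their group means that correlated at 0.042, 0.179 and -0.103. Pairs of unlike letters ran from -0.212 to 0.185, and not every library correlated best with its own letter. With 3 libraries per group these values cannot decide whether the pools of a letter were handled together, which was not tested. With the letter as a replicate block, 18 zinc finger genes were called lower and 0 higher, and 851 (9.58%) and 277 of all genes.

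Among named genes the sign turned only in genes that were not called. Smp_072720 was -0.0154 without irradiated A (-0.0154 to 0.048 over the 6 fits that leave out a library). Smp_099900 was 0.0057 on gene reads with introns, 0.14 on intronic reads and 0.0179 without control C (-0.0518 to 0.0179). Smp_105210 was -0.0129 on exon-exon reads, -0.0289 without replicate B in both groups, -0.0003 without irradiated B and -0.0133 without control B (-0.0133 to 0.0373). Smp_125460 was 0.13 without replicate B in both groups, 0.0048 without irradiated B and 0.0864 without control B (-0.1024 to 0.0864). On intronic reads Smp_135600 was 0.48, Smp_142520 -0.021 and Smp_169610 -0.0768. Depth limits the 17 untested genes, whose change is not known.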
